A study of Mus musculus with 20 samples.

Results

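The dermis of embryonic skin at E14.5 was set against the dermis of healed wounds of WT mice, gene by gene. The members are 7 of the 20 libraries of the study, chosen by their labels alone: 4 libraries of E14.5 dermis (numbers 3, 4, 5 and 7) and 3 of WT wound dermis (WT-9097, WT-9098 and WT-9229). All genes entered, and 19732 of the 19807 listed genes had at least 1 read. The study asked why small skin wounds of mice heal as scars without hair follicles, and embryonic skin is the tissue in which follicles first form, so the comparison asks which genes differ between the dermis of such skin and that of a scar.

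E14.5 libraries came from mouse embryos of mixed strain and wild type genotype. WT wound libraries came from mice of mixed strain and wild type genotype, 4-5 weeks old, and their wounds were taken 2 days after the scab had come off. In the study's methods these wounds were small punch wounds, and the control mice were littermates of the transgenic animals that received tamoxifen as well. Epidermis was loosened with EDTA in both groups, and total RNA of the dermis was depleted of ribosomal RNA and sequenced. A label names neither single animals nor pools, so p-values measure the spread between these libraries, which may in part be technical. Age, wounding, tamoxifen and sequencing depth all change together between the groups and cannot be told apart. In bulk tissue, fewer cells of a type and less RNA per cell cannot be told apart either.

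As background, the dermis is built by fibroblasts, which lay down collagens and the glycoproteins that organise them. In the embryo these cells divide, answer Wnt signals from the epidermis and gather into dermal condensates, the clusters that become the papilla of each hair follicle, and Sonic hedgehog from the epidermis signals to them. In a healing wound, fibroblasts turn into matrix-producing, contractile cells, and macrophages and antigen-presenting cells enter from the blood. Major histocompatibility complex (MHC) class II proteins mark antigen-presenting cells.

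In what follows, E14.5 and WT wounds stand for the dermis of each. Values are CPM, the reads of a gene for each 1000000 that a library holds, and are given in the order 3, 4, 5 and 7 for E14.5 dermis and WT-9097, WT-9098 and WT-9229 for WT wound dermis. Depth differed between the groups, with 16160420 to 18745431 reads per library in E14.5 dermis and 1407498 to 3752046 in WT wound dermis. Genes with at least 1 read numbered 18849 to 19419 in E14.5 dermis and 11895 to 17521 in WT wound dermis. Library WT-9229 stood apart, with 11895 detected genes against 17055 and 17521 in the other two, and with 177144 CPM in the small RNA gene Mir5105. When all 7 libraries were thinned to about the depth of WT-9229, E14.5 libraries still held 17019 to 17520 genes, against 16050 to 16084 in WT-9098 and WT-9097 and 11895 in WT-9229. Collagen genes took 3.88% to 4.39% of all reads in E14.5 dermis and 29.0% to 35.6% in WT wound dermis.

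Because the CPM of a library share one total, the collagen share bears on the CPM of every other gene. Among the 3883 genes averaging 50 CPM or more the median log2 fold change, E14.5 over WT wound on the log2(CPM + 1) scale, was 0.91 on CPM. It was 0.43 with collagen genes left out of the total, 0.33 with every gene above 10000 CPM left out, and 0.12 after scaling by the trimmed mean of M values (TMM). On CPM, 9741 genes were higher in E14.5 dermis and 1309 lower at an adjusted p of 0.05 (limma, Benjamini-Hochberg), which is 49.4% and 6.63% of the genes tested, and higher genes made up 88.2% of the calls. With TMM the split was 5024 higher and 2759 lower (64.6% higher), without collagens 6314 and 1996 (76.0%), and without the genes above 10000 CPM 6202 and 2275 (73.2%). A gene is therefore said here to have risen or fallen only where it passed the test in the same direction on CPM and on all of these scalings. That left 5024 genes that rose (25.5% of those tested) and 1290 that fell (6.54%), and these 2 shares are the background against which each gene group is read. For comparison, 555 genes called higher on CPM had a lower level in E14.5 dermis on at least 1 of the rescaled totals. Without WT-9229, 6058 genes rose and 2120 fell. On CPM, all E14.5 libraries lay above all WT libraries for 10495 genes (53.2%), and below them for 1379 genes (6.99%). Where groups are said not to overlap, these shares are the background.

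**Figure D1:**
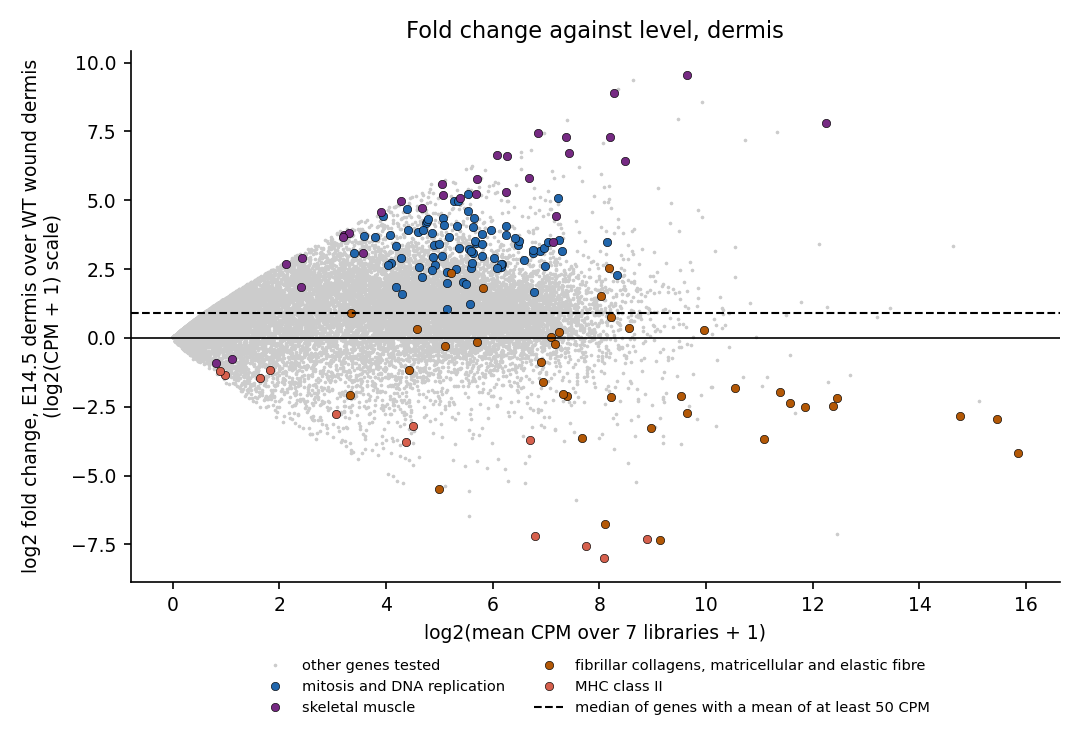
Log2 fold change of E14.5 dermis over WT wound dermis (vertical, log2(CPM + 1) scale) against the mean level over the 7 libraries (horizontal, log2) for the 19732 genes tested, with 4 groups of lists coloured. The dashed line is the median of the 3883 genes averaging 50 CPM or more, 0.91 on CPM, and the most abundant matrix genes lie furthest to the right and below 0.

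The defining markers of dermis were present in all 7 libraries. Pdgfra, a receptor carried by fibroblasts, had 543, 601, 585 and 384 CPM at E14.5, against 349, 411 and 175 CPM in WT wounds. Twist2, a transcription factor of dermal progenitors, had 356, 465, 376 and 242 CPM at E14.5, against 110.5, 119.7 and 88.1 CPM in WT wounds. The 6 dermal fibroblast markers, Col1a1 and Col1a2 among them, were all found and together reached 17514 to 19055 CPM in E14.5 dermis and 170280 to 195630 CPM in WT wound dermis. Both tissues therefore carried their label's markers, and both also held RNA of other cells. The 6 keratinocyte markers summed to 123 to 499.8 CPM in E14.5 dermis and 417 to 781 CPM in WT wound dermis, and the 6 skeletal muscle markers to 6419 to 24535 CPM and 32.2 to 45.5 CPM, with Myod1 and Actc1 at 0 in all 3 WT libraries.

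Most fibrillar collagen genes were lower in E14.5 dermis. Of 9 fibrillar collagen genes, which encode the chains of the load-bearing fibres, none rose and 6 fell, with a median log2 fold change of -2.45 on CPM and -3.26 with TMM, beside 0.78 and 0.26 over all genes. The count of 6 was 4 without E14.5 library 7. The list as a whole held 28935 to 30750 CPM in E14.5 dermis and 267680 to 320860 CPM in WT wound dermis. Col5a1, the chain that starts and thins collagen fibrils, had 1805, 1908, 1658 and 1863 CPM at E14.5, against 8852, 11949 and 9177 CPM in WT wounds, with a log2 fold change of -2.45 ± 0.26 (SE, adjusted p = 0.00016). Col5a3, a rarer chain of the same type, had 46.1, 11.8, 24.2 and 78.6 CPM at E14.5, against 334, 518 and 413 CPM in WT wounds, with a log2 fold change of -3.65 ± 0.54 (SE, adjusted p = 0.00075). For both genes the lowest WT library lay above the highest E14.5 library. Col11a1 was the member with the highest fold change, 1.82 on CPM and 1.05 with TMM, and it did not pass on every scaling.

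Of the 20 other collagens, 9 fell and 3 rose. Col12a1 and Col16a1, which sit on the surface of fibrils, fell, as did Col7a1, the anchoring fibril below the epidermis, and all 3 chains of type VI on the list. Col12a1 had 918, 1029, 1019 and 825 CPM at E14.5, against 4736, 7304 and 7061 CPM in WT wounds, with a log2 fold change of -2.73 ± 0.25 (SE, adjusted p = 7.9e-05). Col7a1 had 231, 427, 277 and 145 CPM at E14.5, against 1526, 2784 and 2807 CPM in WT wounds, with a log2 fold change of -3.18 ± 0.37 (SE, adjusted p = 0.00024), and the groups did not overlap. The members that rose were Col8a2, Col23a1 and Emid2, which is the older symbol of the type XXVI collagen. Emid2 stood against the rest of its list, with 494, 548, 439 and 394 CPM at E14.5, against 1.43, 1.33 and 6.39 CPM in WT wounds, with a log2 fold change of 7.07 ± 0.38 (SE, adjusted p = 1.4e-05). WT-9229 was the highest WT library for that gene and lay far below every E14.5 library.

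Matricellular and elastic fibre genes, which tie cells to fibres and organise them, followed the collagens, with 16 of 29 falling and 2 rising (Fbln1 and Efemp1) and a median log2 fold change of -1.83 on CPM. Their sum was 9048 to 10364 CPM in E14.5 dermis and 34653 to 44353 CPM in WT wound dermis. Thbs2, a thrombospondin that shapes fibrils, had 383, 298, 391 and 375 CPM at E14.5, against 4155, 5374 and 4293 CPM in WT wounds, with a log2 fold change of -3.67 ± 0.19 (SE, adjusted p = 1.4e-05). Mfap4, a microfibril protein, had 96.7, 102, 102 and 115 CPM at E14.5, against 1372, 962 and 765 CPM in WT wounds, with a log2 fold change of -3.26 ± 0.20 (SE, adjusted p = 2.2e-05). Postn, periostin, a matrix protein of healing tissue, had 1324, 798, 1192 and 1547 CPM at E14.5, against 4402, 9427 and 7393 CPM in WT wounds, with a log2 fold change of -2.51 ± 0.35 (SE, adjusted p = 0.00053). Fbn1, the backbone of microfibrils, fell less, with a log2 fold change of -1.83 ± 0.30 (SE). Itgbl1, an integrin beta-like protein that was on no list, was among the 10 largest falls of all genes, with 4.27, 14.1, 7.49 and 2.51 CPM at E14.5, against 539, 487 and 267 CPM in WT wounds, with a log2 fold change of -5.89 ± 0.48 (SE, adjusted p = 5.5e-05).

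Of the 24 genes that process and crosslink collagen, 8 fell and 2 rose, with a median log2 fold change of -0.34 on CPM and -1.13 with TMM. The groups overlapped in the sum on CPM, with 7754 to 8228 CPM in E14.5 dermis and 7350 to 9473 CPM in WT wound dermis. Among those that fell were Adamts2 and Bmp1, which cut the ends off procollagen, and Loxl2, a crosslinking oxidase. Adamts2 had 169, 209, 165 and 151 CPM at E14.5, against 820.3, 1104 and 917 CPM in WT wounds, with a log2 fold change of -2.44 ± 0.17 (SE, adjusted p = 3.3e-05), and Loxl2 had 294, 335, 336 and 328 CPM at E14.5, against 693, 1115 and 926 CPM in WT wounds, with a log2 fold change of -1.47 ± 0.19 (SE, adjusted p = 0.00038). The 2 that rose act on chains inside the cell. P4ha1, a subunit of prolyl hydroxylase, had 207, 191, 224 and 194 CPM at E14.5, against 72.2, 90.4 and 82.4 CPM in WT wounds, with a log2 fold change of 1.31 ± 0.14 (SE, adjusted p = 0.00017). Plod2, a lysyl hydroxylase, had 70.7, 63.4, 64.4 and 69.5 CPM at E14.5, against 21.5, 29.9 and 19.2 CPM in WT wounds, with a log2 fold change of 1.5 ± 0.19 (SE, adjusted p = 0.00035). Without E14.5 library 7 neither passed on every scaling, and without library 4 only 1 gene of the list rose. Serpinh1, the collagen chaperone, had 3339, 3713, 3655 and 3439 CPM at E14.5, against 1577, 2069 and 2355 CPM in WT wounds, and its log2 fold change of 0.84 on CPM was 0.04 with TMM and -0.01 by edgeR on recovered reads, so that its direction turned with the test, and it lost the call on CPM without any one of the E14.5 libraries.

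Proteoglycans and hyaluronan genes were mixed, with 5 of 23 falling (Bgn, Aspn, Prelp, Omd and Podn) and 4 rising (Hapln1, Has2, Hyal2 and Gpc3), and their median turned from 0.39 on CPM to -0.37 with TMM. That is 21.7% falling, beside 6.54% of all genes tested, and 17.4% rising, beside 25.5%. Bgn, biglycan, a small proteoglycan bound to collagen, had 217, 251, 257 and 193 CPM at E14.5, against 1990.0, 1365 and 2071 CPM in WT wounds, with a log2 fold change of -2.96 ± 0.20 (SE, adjusted p = 2.9e-05). Has2, the enzyme that makes hyaluronan, the water-binding sugar chain of soft matrix, had 102, 99.9, 132 and 72.8 CPM at E14.5, against 17.2, 13.3 and 11.4 CPM in WT wounds, with a log2 fold change of 2.76 ± 0.24 (SE, adjusted p = 6.5e-05). Dcn and Lum, the abundant small proteoglycans decorin and lumican, did not pass on CPM, and Dcn had 1237, 920.5, 1438 and 1040.4 CPM at E14.5, against 1082, 1004 and 1032 CPM in WT wounds, with overlapping groups. Hapln1, which links hyaluronan to proteoglycan, rested on a single library for its level, with 3.84, 85.7, 5.38 and 6.38 CPM at E14.5, against 0.358, 0.267 and 0 CPM in WT wounds.

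Matrix proteases and their inhibitors were lower in E14.5 dermis, with 16 of 26 falling and 3 rising (Mmp16, Fap and Serpine2). Without E14.5 library 4, 1 rose. Mmp2 and Mmp14, a secreted gelatinase and the membrane protease that activates it, fell by similar amounts. Mmp2 had 204, 236, 196 and 270.4 CPM at E14.5, against 993, 1246 and 954 CPM in WT wounds, with a log2 fold change of -2.23 ± 0.18 (SE, adjusted p = 5.2e-05), and Mmp14 had 230.0, 249.8, 241 and 221 CPM at E14.5, against 871, 1223 and 1046 CPM in WT wounds, with a log2 fold change of -2.13 ± 0.16 (SE, adjusted p = 4.6e-05). Mmp12, the elastase of macrophages, had 0, 0.0552, 0.371 and 0 CPM at E14.5, against 37.9, 26.7 and 67.5 CPM in WT wounds, and E14.5 libraries 3 and 7 held no read of it, with a log2 fold change of -5.26 ± 0.40 (SE, adjusted p = 4.4e-05). Of 18 contractile and pericyte genes 3 fell (Tagln, Itga11 and Rgs5) and 3 rose (Tpm1, Mcam and Kcnj8). Each count is 16.7% of the list, beside 6.54% of all genes tested that fell and 25.5% that rose. The count that rose was 7 without WT-9229 and 1 without E14.5 library 7, and the count that fell was 1 without E14.5 library 4. Itga11, a collagen-binding integrin of fibroblasts, had 34.3, 35.4, 30.7 and 15.3 CPM at E14.5, against 242, 371 and 278 CPM in WT wounds, with a log2 fold change of -3.36 ± 0.30 (SE, adjusted p = 7.7e-05).

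**Figure D2:**
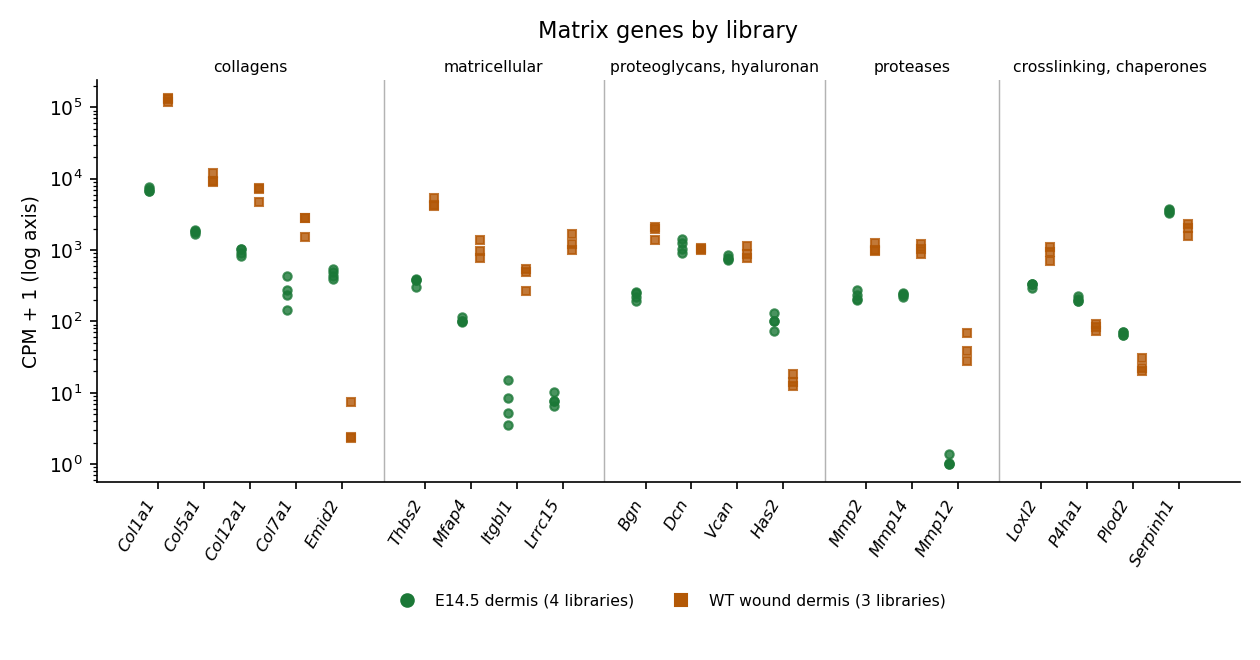
CPM + 1 (log axis) of matrix genes in each library, with E14.5 dermis as circles (4 libraries) to the left of WT wound dermis as squares (3 libraries). Most genes lie lower in E14.5 dermis, Emid2, Has2, P4ha1, Plod2 and Serpinh1 lie higher, and Dcn and Vcan overlap.

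Genes of cell division rose with no exception on 1 list and few on the other. All 40 mitosis genes rose, also without WT-9229, without E14.5 library 4 and without E14.5 library 7, and the 40 had log2 fold changes of 1.96 to 5.22 on CPM and 1.19 to 4.72 with TMM. Of 39 DNA replication genes 36 rose and none fell, and Rfc5, Gins4 and E2f1 passed on CPM but not on every scaling. Summed over the list, mitosis genes reached 3588 to 4470 CPM in E14.5 dermis and 431 to 487 CPM in WT wound dermis, and replication genes 3124 to 3324 CPM and 408 to 471 CPM. Marker sums of other cells moved the same way, 3208 to 9405 CPM in E14.5 dermis and 16.5 to 38.4 CPM in WT wound dermis for 6 erythroid markers besides those of muscle, and their part in this result was not tested.

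Ccna2, cyclin A2, which drives S phase and entry into mitosis, had 271, 261, 265 and 225 CPM at E14.5, against 8.94, 8.53 and 3.55 CPM in WT wounds, with a log2 fold change of 5.08 ± 0.28 (SE, adjusted p = 1.4e-05). Kif11, the motor that pushes spindle poles apart, had 156, 153, 167 and 116 CPM at E14.5, against 10.4, 13.9 and 11.4 CPM in WT wounds, with a log2 fold change of 3.53 ± 0.19 (SE, adjusted p = 1.4e-05). Top2a, which untangles chromosomes, had 495, 479, 503 and 372 CPM at E14.5, against 48.3, 47.7 and 27 CPM in WT wounds. Mki67, the common proliferation marker, had one of the smaller changes, with 499, 598, 474 and 385 CPM at E14.5, against 122, 111 and 70.3 CPM in WT wounds, with a log2 fold change of 2.28 ± 0.23 (SE, adjusted p = 0.00012). In each of these genes the groups were apart by more than the range within either group. Among replication genes, Mcm6, a subunit of the helicase that opens DNA, had 244, 239, 261 and 239.6 CPM at E14.5, against 32.2, 28.8 and 8.53 CPM in WT wounds, with a log2 fold change of 3.55 ± 0.39 (SE, adjusted p = 0.00018). Rrm2, a subunit of ribonucleotide reductase, which supplies DNA building blocks, had 135, 112, 121 and 132 CPM at E14.5, against 9.3, 11.5 and 5.68 CPM in WT wounds, with a log2 fold change of 3.72 ± 0.23 (SE, adjusted p = 2.1e-05). Mcm5, another helicase subunit, had 202, 213, 218 and 221 CPM at E14.5, against 15.4, 11.2 and 34.8 CPM in WT wounds. WT-9229 was the lowest WT library for Mcm6 and Rrm2 and the highest for Mcm5.

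Since whole lists moved together, their promoters were read for the letters that cell cycle regulators are known to bind. The windows hold 300 bases around each gene's start, most of them upstream (RefSeq, GRCm38.p6, a later build than that of the expression tables). An entry was found for 31 of 40 mitosis genes and 30 of 39 replication genes. Each listed gene entered once, with its first window, while the shares over all promoters count every window, so the units differ. Both strands were searched, and motifs could overlap. CCAAT, the Y box that factor NF-Y binds, was in 24 of the 31 mitosis promoters (77.4%) and in 37.4% of all 32851 promoters of the same length. TTTGAA, the cell cycle homology region (CHR), was in 22 of 31 (71.0%) and in 17.9% of all promoters, and both were in 20 of 31 (64.5%) and in 6.95%. TTTNNCGC, a form of the E2F site, was in 13 of 30 replication promoters (43.3%) and in 5.17% of all promoters. These are matches of letters and no measure of binding.

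The windows of Cdc20, which switches on the ubiquitin ligase that ends mitosis, and of Kif11 show the pair of Y box and CHR close to the start, and those of Mcm5 and Mcm6 show E2F letters on both strands. Cdc20 had 75.1, 96.6, 72.6 and 89.9 CPM at E14.5, against 8.22, 5.6 and 6.39 CPM in WT wounds, with a log2 fold change of 3.45 ± 0.21 (SE, adjusted p = 1.9e-05). Capitals mark CCAAT and TTTGAA, or their reverse complements ATTGG and TTCAAA, in the first 2 windows, and TTTNNCGC in either direction in the last 2, where CCAAT is left in lower case.
Cdc20, chr4:118437294-118437593, minus strand: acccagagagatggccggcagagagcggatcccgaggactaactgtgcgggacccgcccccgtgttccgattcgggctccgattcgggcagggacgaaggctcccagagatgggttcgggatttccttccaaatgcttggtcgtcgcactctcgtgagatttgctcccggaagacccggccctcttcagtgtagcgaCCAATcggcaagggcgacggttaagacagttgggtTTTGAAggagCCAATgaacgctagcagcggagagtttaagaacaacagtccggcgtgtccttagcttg
Kif11, chr19:37376132-37376431, plus strand: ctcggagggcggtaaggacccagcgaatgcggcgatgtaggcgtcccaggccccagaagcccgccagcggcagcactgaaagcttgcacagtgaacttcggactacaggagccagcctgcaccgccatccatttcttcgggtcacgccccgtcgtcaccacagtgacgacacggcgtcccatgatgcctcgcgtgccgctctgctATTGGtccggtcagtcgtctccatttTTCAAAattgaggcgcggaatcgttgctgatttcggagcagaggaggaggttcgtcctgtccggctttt
Mcm5, chr8:75109259-75109558, plus strand: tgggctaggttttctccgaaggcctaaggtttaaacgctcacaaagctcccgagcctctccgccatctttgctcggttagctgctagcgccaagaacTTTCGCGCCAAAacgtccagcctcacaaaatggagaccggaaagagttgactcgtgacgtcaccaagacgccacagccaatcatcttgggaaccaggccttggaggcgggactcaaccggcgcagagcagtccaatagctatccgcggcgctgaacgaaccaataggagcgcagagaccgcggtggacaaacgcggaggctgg
Mcm6, chr1:128359656-128359955, minus strand: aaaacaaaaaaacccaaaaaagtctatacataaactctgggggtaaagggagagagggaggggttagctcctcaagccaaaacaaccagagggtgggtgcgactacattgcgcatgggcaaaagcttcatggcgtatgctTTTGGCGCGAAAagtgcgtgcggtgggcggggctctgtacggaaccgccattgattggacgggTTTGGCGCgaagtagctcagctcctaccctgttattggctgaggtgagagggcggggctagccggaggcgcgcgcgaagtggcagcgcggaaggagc
In Cdc20 the CHR letters end 13 bases before the start and in Kif11 14 bases before it, and the nearest Y boxes upstream of these end 49 and 41 bases before the start. The 2 E2F matches of Mcm5 overlap, as do 2 of the 3 of Mcm6.

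Imprinted genes, which are read from only 1 parental copy and many of which steer fetal growth, were the next group to rise nearly as a whole. Of 26 tested, 22 rose and none fell, with a median log2 fold change of 3.36 on CPM and 2.56 with TMM, and Meg3, Sgce and Impact passed on CPM but not on every scaling. Their sum was 19051 to 26839 CPM in E14.5 dermis and 2043 to 3073 CPM in WT wound dermis. Cdkn1c, an inhibitor of cyclin-dependent kinases, had 1728, 944, 1461 and 2419.9 CPM at E14.5, against 83.3, 59.97 and 77.4 CPM in WT wounds, with a log2 fold change of 4.39 ± 0.30 (SE, adjusted p = 2.9e-05). Peg10, a gene derived from a retrotransposon, had 412, 335, 400.2 and 710.5 CPM at E14.5, against 13.2, 9.06 and 19.9 CPM in WT wounds, with a log2 fold change of 4.95 ± 0.31 (SE, adjusted p = 2.2e-05). Cdkn1c and Peg10 were highest in E14.5 library 7 and lowest in library 4, as was the sum of skeletal muscle genes. The part of muscle RNA was not tested. H19, the noncoding RNA that neighbours Igf2, had 7458, 5872, 6692 and 8362 CPM at E14.5, against 569.6, 253 and 1964 CPM in WT wounds, with a log2 fold change of 3.42 ± 0.59 (SE, adjusted p = 0.0016). WT-9229 was the highest WT library for H19, and still below the lowest E14.5 library. Grb10, a brake on insulin signalling, had 1359.5, 1092, 1270.0 and 1515 CPM at E14.5, against 296, 249 and 179.8 CPM in WT wounds, and Peg3, a zinc finger gene, had 2437, 2455, 2486 and 2194 CPM at E14.5, against 377, 346 and 107 CPM in WT wounds. Igf2r, the receptor that clears Igf2, also rose, with 989, 954, 829.6 and 1052 CPM at E14.5, against 213, 294 and 344 CPM in WT wounds, with a log2 fold change of 1.77 ± 0.20 (SE, adjusted p = 0.0002).

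RNA-binding and chromatin genes of the fetal state rose in 11 of 20 cases and fell in none. Igf2bp1, which binds the Igf2 message among others, had 157, 179.6, 156 and 144 CPM at E14.5, against 0.358, 2.4 and 0 CPM in WT wounds, with a log2 fold change of 6.58 ± 0.39 (SE, adjusted p = 1.8e-05), and WT-9229 held no read of it. Igf2bp2 and Igf2bp3, its relatives, rose with smaller changes, and Igf2bp3 had 101, 95.7, 95.5 and 92.5 CPM at E14.5, against 2.86, 4.53 and 9.24 CPM in WT wounds. Of the enzymes that set DNA methylation, Dnmt1, which copies it at replication, rose with a log2 fold change of 2.19 ± 0.31 (SE). Dnmt3a, which sets it anew, had 348, 421, 310.3 and 316 CPM at E14.5, against 201, 208 and 175 CPM in WT wounds, and its log2 fold change of 0.83 on CPM was 0.03 with TMM. Uhrf1, which guides Dnmt1 to DNA, had 97.3, 112, 103 and 101 CPM at E14.5, against 6.08, 4.53 and 2.13 CPM in WT wounds, with a log2 fold change of 4.39 ± 0.28 (SE, adjusted p = 2.3e-05). Ezh2, which writes the repressive mark of the Polycomb complex, had 94.4, 102, 107 and 80.7 CPM at E14.5, against 25, 21.3 and 4.97 CPM in WT wounds, with a log2 fold change of 2.67 ± 0.46 (SE, adjusted p = 0.0016).

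Genes of protein synthesis and respiration rose by less. Of 79 cytosolic ribosomal protein genes 49 rose and none fell, and the count was 30 without E14.5 library 4 and 34 without library 7. Their sum was 5692 to 6216 CPM in E14.5 dermis and 1804 to 3184 CPM in WT wound dermis. Rps3, of the small subunit, had 894, 743, 956 and 907 CPM at E14.5, against 403, 234 and 222 CPM in WT wounds, with a log2 fold change of 1.66 ± 0.23 (SE, adjusted p = 0.00057), while Rpl4, of the large subunit, had 279, 228, 263 and 254 CPM at E14.5, against 299.7, 189 and 161 CPM in WT wounds, with a log2 fold change of 0.29 on CPM and -0.51 with TMM. Of 40 nuclear genes of oxidative phosphorylation 27 rose and none fell. Atp5b, a subunit of ATP synthase, had 1097, 1047, 1123 and 1256 CPM at E14.5, against 325, 267 and 242 CPM in WT wounds, with a log2 fold change of 2.03 ± 0.17 (SE, adjusted p = 6e-05), and Uqcrc1, of respiratory complex III, had 189.7, 212, 203 and 217 CPM at E14.5, against 44, 43.7 and 32.7 CPM in WT wounds. Of 20 glycolysis and hypoxia genes 9 rose and none fell, and without WT-9229, 10 rose and 2 fell. Ldha, lactate dehydrogenase, was among those that rose, with 219, 178, 228 and 224 CPM at E14.5, against 42.9, 33 and 78.2 CPM in WT wounds. These sets are read with care, since 7 of 12 common reference genes also rose. Actb, beta actin, one of the other reference genes, had 4932, 4514, 4592 and 4865 CPM at E14.5, against 2117, 1335 and 2384 CPM in WT wounds, with a log2 fold change of 1.32 on CPM and 0.52 with TMM.

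Immune lists also held many genes that were lower in E14.5 dermis. Of 12 MHC class II genes, which load and present peptides of engulfed proteins, 10 fell, and H2-Eb2 and H2-Ob passed on CPM but not with TMM. The list summed to 28.8 to 36.9 CPM in E14.5 dermis and 1399.5 to 3851 CPM in WT wound dermis. H2-Eb1, a class II beta chain, had 0.8, 0.717, 0.371 and 0.74 CPM at E14.5, against 288, 132 and 352 CPM in WT wounds, with a log2 fold change of -7.18 ± 0.37 (SE, adjusted p = 1.1e-05). H2-DMa, which helps peptides into the groove, had 3.04, 5.41, 2.85 and 3.13 CPM at E14.5, against 63.3, 17.3 and 56.8 CPM in WT wounds, with a log2 fold change of -3.18 ± 0.47 (SE, adjusted p = 0.00074). Ctss, the protease that trims the class II chaperone, had 12.8, 15.5, 14 and 13.8 CPM at E14.5, against 195, 100.2 and 369 CPM in WT wounds, with a log2 fold change of -3.69 ± 0.38 (SE, adjusted p = 0.00013). WT-9098 was the lowest WT library for all 3 genes, and it too lay above every E14.5 library. H2 genes have near copies, and how reads that match several were counted was not given in the sources used here.

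Class II promoters are known for a shared module in which NF-Y binds a Y box. CCAAT was in 7 of the 9 class II genes with a RefSeq entry (77.8%), against 37.4% of all promoters, counted as for the mitosis genes. The windows of H2-Aa, which had 1.17, 2.15, 0.804 and 1.42 CPM at E14.5, against 818, 349 and 722 CPM in WT wounds, and of H2-Eb1 are shown with that box in capitals in either direction, CCAAT or ATTGG.
H2-Aa, chr17:34287774-34288073, minus strand: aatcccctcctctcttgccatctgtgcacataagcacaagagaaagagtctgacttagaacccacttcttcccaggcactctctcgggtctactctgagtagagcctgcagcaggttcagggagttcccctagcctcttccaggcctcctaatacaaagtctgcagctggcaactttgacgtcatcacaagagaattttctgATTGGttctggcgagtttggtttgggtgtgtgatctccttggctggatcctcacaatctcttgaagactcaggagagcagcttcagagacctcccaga
H2-Eb1, chr17:34305617-34305916, plus strand: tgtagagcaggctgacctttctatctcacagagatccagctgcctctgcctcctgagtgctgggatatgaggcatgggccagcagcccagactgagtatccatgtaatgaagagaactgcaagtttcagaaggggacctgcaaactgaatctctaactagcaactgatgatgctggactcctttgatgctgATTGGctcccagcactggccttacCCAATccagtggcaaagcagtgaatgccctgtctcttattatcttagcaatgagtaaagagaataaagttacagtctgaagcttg
In both windows a box on the reverse strand ends 44 (H2-Aa) and 55 (H2-Eb1) bases before the annotated start.

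The class I pathway, by which any nucleated cell shows its own peptides, fell too, in 11 of 12 genes. H2-K1 and H2-D1, the classical heavy chains, had 22.9, 26.8, 36.6 and 30.6 CPM at E14.5, against 156, 107 and 370.2 CPM in WT wounds for H2-K1 and 32.8, 31.6, 47.2 and 42.9 CPM at E14.5, against 279, 231 and 549 CPM in WT wounds for H2-D1. B2m, the light chain, had 137, 99.4, 131 and 128 CPM at E14.5, against 319, 213 and 497 CPM in WT wounds, with a log2 fold change of -1.39 ± 0.27 (SE, adjusted p = 0.0029). Nlrc5, the transactivator of class I genes, had 1.87, 1.99, 1.11 and 2.62 CPM at E14.5, against 41.8, 25.3 and 39.1 CPM in WT wounds, with a log2 fold change of -3.65 ± 0.34 (SE, adjusted p = 9.5e-05). In all 4 genes the lowest WT library lay above the highest E14.5 library, as for 6.99% of all genes tested.

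Of 28 macrophage and monocyte genes 19 fell and none rose (1 without WT-9229), while the median log2 fold change of -1.58 was smaller in size than that of class II (-3.44). The 4 defining macrophage markers, all found, summed to 98.9 to 123 CPM in E14.5 dermis and 184 to 568 CPM in WT wound dermis, so macrophage markers were measured in every E14.5 library, while the class II list held at most 36.9 CPM there. Their part in the class II result was not tested. Csf1r, the growth factor receptor of macrophages, had 59.6, 63.5, 59.5 and 80.5 CPM at E14.5, against 143, 93.5 and 249 CPM in WT wounds, with a log2 fold change of -1.18 ± 0.30 (SE, adjusted p = 0.01). Mrc1, the mannose receptor of resident macrophages, had 193, 133, 168 and 181 CPM at E14.5, against 213, 84 and 259 CPM in WT wounds, with overlapping groups. Gpnmb, a glycoprotein of lysosome-rich macrophages, had 2.51, 4.69, 4.02 and 4.33 CPM at E14.5, against 188, 166 and 167 CPM in WT wounds, with a log2 fold change of -5.18 ± 0.23 (SE, adjusted p = 6.5e-06). Lyz2, lysozyme, had 24.3, 26.6, 24.6 and 29.2 CPM at E14.5, against 298, 135 and 463 CPM in WT wounds. Ccl8, a chemokine, had no read in E14.5 dermis and 51.9, 11.2 and 45.5 CPM in WT wound dermis, which makes it at least 742-fold lower in E14.5 dermis against a floor of 3 reads over the 4 libraries.

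Other immune lists pointed the same way in part. Complement genes fell in 11 of 16 cases, and C1qa, a subunit of the first component, had 29.2, 21.7, 28.5 and 39 CPM at E14.5, against 161, 67.4 and 342 CPM in WT wounds, with a log2 fold change of -2.38 ± 0.47 (SE, adjusted p = 0.0031). Serping1, the inhibitor of that component, had 33.4, 28.1, 26.7 and 40.9 CPM at E14.5, against 196, 137 and 156 CPM in WT wounds, with a log2 fold change of -2.31 ± 0.20 (SE, adjusted p = 7.4e-05). Interferon-induced genes fell in 14 of 22 cases, and 1 rose (Ifitm2). Irf7, a factor that amplifies the interferon response, had 5.97, 8.44, 7.12 and 4.78 CPM at E14.5, against 76.9, 36 and 203 CPM in WT wounds, with a log2 fold change of -3.49 ± 0.51 (SE, adjusted p = 0.0007), and Oasl2, an antiviral gene, had 1.81, 1.99, 0.804 and 1.54 CPM at E14.5, against 49, 29.6 and 81 CPM in WT wounds, with a log2 fold change of -4.33 ± 0.41 (SE, adjusted p = 9.2e-05). Of 19 neutrophil and cytokine genes 6 fell and 1 rose (Nos2). Il1b, an inflammatory cytokine, had 1.17, 1.16, 1.73 and 1.08 CPM at E14.5, against 60.4, 19.2 and 14.9 CPM in WT wounds, with a log2 fold change of -3.57 ± 0.49 (SE, adjusted p = 0.00051), whereas Tnf had 23.6, 24.3, 27 and 23.9 CPM at E14.5, against 75.1, 20.3 and 23.4 CPM in WT wounds, with overlapping groups. Of 17 T and NK cell genes 5 fell (8 without WT-9229). Cd3e, a chain of the T cell receptor complex, had no read in E14.5 dermis and 2.86, 2.4 and 8.53 CPM in WT wound dermis, at least 85.8-fold lower.

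Mast cells gave a mixed picture within 1 list. Of 9 genes Mcpt4 alone fell and none rose (1 without WT-9229 and 1 without E14.5 library 4). Mcpt4, a chymase of connective tissue mast cells, had 0.694, 1.21, 1.55 and 0.911 CPM at E14.5, against 123, 48.8 and 148 CPM in WT wounds, with a log2 fold change of -5.56 ± 0.42 (SE, adjusted p = 4.3e-05). Cma1, another chymase, had 146, 126, 233 and 179 CPM at E14.5, against 86.5, 36 and 162 CPM in WT wounds, and Cpa3, the carboxypeptidase stored with them, had 224, 190.4, 374 and 269 CPM at E14.5, against 90.8, 46.9 and 104 CPM in WT wounds. Cpa3 passed on CPM (log2 fold change 1.73) and not on every scaling, so that of these mast cell proteases one was far lower in E14.5 dermis and the other two were not.

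**Figure D3:**
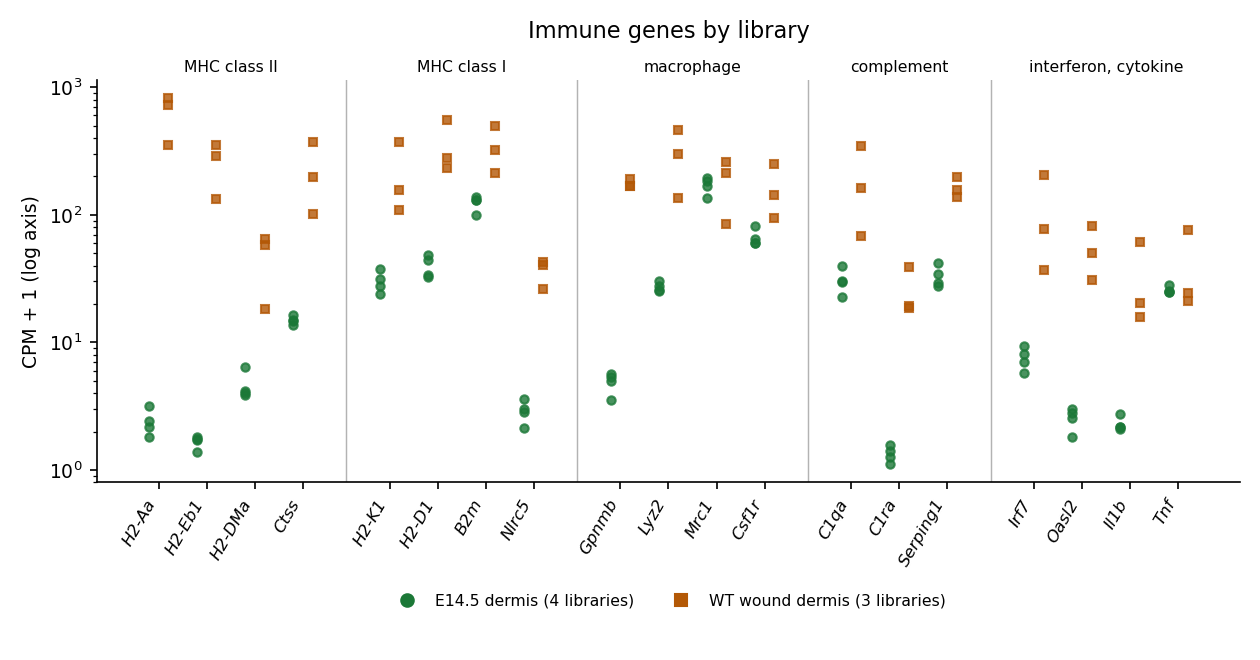
CPM + 1 (log axis) of immune genes in each library, with E14.5 dermis as circles (4 libraries) to the left of WT wound dermis as squares (3 libraries). MHC class II, class I, Gpnmb, Lyz2 and interferon genes lie lower in E14.5 dermis, and Mrc1 and Tnf overlap.

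Within the fibroblast lineage, 10 of 31 genes rose (32.3%, beside 25.5% of all genes tested). Another 5 fell (Dpp4, Ly6a, S100a4, Osr2 and Runx1), which is 16.1%, beside 6.54%. Crabp1 and Crabp2 bind retinoic acid in the cell. Crabp1 had 1111, 1366, 1243 and 753 CPM at E14.5, against 144, 193 and 276 CPM in WT wounds, with a log2 fold change of 2.46 ± 0.28 (SE, adjusted p = 0.0002), and Crabp2 had 44.9, 49.99, 47.6 and 51.1 CPM at E14.5, against 1.79, 2.93 and 7.82 CPM in WT wounds, with a log2 fold change of 3.43 ± 0.38 (SE, adjusted p = 0.00018). Sox11, a transcription factor of embryonic mesenchyme, had 44.5, 43.4, 36 and 40.7 CPM at E14.5, against 2.5, 5.33 and 4.97 CPM in WT wounds, with a log2 fold change of 3.04 ± 0.28 (SE, adjusted p = 8.3e-05). Osr2, a zinc finger factor, went the other way, with 21.6, 17.2, 22.3 and 27.2 CPM at E14.5, against 144, 145 and 87.4 CPM in WT wounds, with a log2 fold change of -2.44 ± 0.24 (SE, adjusted p = 0.00011). E14.5 library 7 was the lowest E14.5 library for Crabp1 and for Twist2, with the lowest value still above the highest WT library. On CPM such a gap was present for 53.2% of all genes tested.

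Dermal condensate and papilla genes rose in 12 of 26 cases and none fell (1 without WT-9229). The study names Bmp7, Enpp2, Lamc3 and Trps1 as papilla genes raised in its Shh wound dermis. Here Bmp7 (log2 fold change 3.76) and Enpp2 (2.37) rose, and Lamc3 passed on no scaling. Trps1 had 92.4, 106.7, 106.4 and 70.7 CPM at E14.5, against 187, 172 and 56.1 CPM in WT wounds. It did not pass on CPM (log2 fold change -0.39), and was lower with TMM (-1.18, adjusted p = 0.025, limma). Wif1, a secreted Wnt inhibitor, had 78.2, 71.6, 95 and 42.9 CPM at E14.5, against 3.58, 2.13 and 3.55 CPM in WT wounds, with a log2 fold change of 4.12 ± 0.31 (SE, adjusted p = 4.3e-05). Fgf10, a growth factor that mesenchyme sends to epithelium, had 33.3, 35.6, 40.8 and 24.7 CPM at E14.5, against 2.5, 0.8 and 0 CPM in WT wounds, with a log2 fold change of 4.21 ± 0.45 (SE, adjusted p = 0.00015). Itga8, an integrin chain of mesenchymal cells from the lineage list, had 71.5, 79.8, 87.6 and 46 CPM at E14.5, against 4.29, 5.6 and 3.55 CPM in WT wounds, with a log2 fold change of 3.70 ± 0.28 (SE, adjusted p = 4e-05). Lef1, the nuclear partner of beta-catenin, had 57.5, 92.5, 65.3 and 29 CPM at E14.5, against 32.5, 2.13 and 0 CPM in WT wounds. WT-9097 lay above the lowest E14.5 library for Lef1, the gene passed on CPM (log2 fold change 3.61 ± 1.02, SE) and not on every scaling, and it lost the call on CPM without WT-9098.

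Of 21 Hedgehog pathway genes 5 rose (Scube1, Ptch1, Hhip, Gli1 and Gli2) and none fell, and 2 rose without E14.5 library 4. The share that rose, 23.8%, was no higher than the 25.5% of all genes tested. Gli1 and Ptch1, targets by which the pathway is commonly read, were among the 5, and do not speak for the list. With TMM their adjusted p was 0.019 and 0.021 (limma). Shh, the ligand, had 0.32, 0.828, 0.0619 and 0.342 CPM at E14.5, against 3.58, 0.533 and 0 CPM in WT wounds. Its groups overlapped and it did not pass. Gli1, a transcription factor induced by the signal, had 44.9, 77.4, 56.3 and 35.1 CPM at E14.5, against 17.9, 14.4 and 5.68 CPM in WT wounds, with a log2 fold change of 2.07 ± 0.40 (SE, adjusted p = 0.0027). Ptch1, the receptor for the ligand, had 106, 165, 134 and 74 CPM at E14.5, against 35, 42.9 and 18.5 CPM in WT wounds, with a log2 fold change of 1.88 ± 0.34 (SE, adjusted p = 0.002). Smo, the transducer, passed on CPM but had a log2 fold change of 0.30 with TMM. Gli3, the main repressor, had 98.6, 126, 120.4 and 97.1 CPM at E14.5, against 103, 124 and 63.2 CPM in WT wounds, with overlapping groups and a log2 fold change of 0.23 on CPM and -0.56 with TMM.

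Of 38 Wnt ligands and receptors 13 rose (34.2%, beside 25.5% of all genes tested) and 3 fell (Wnt16, Fzd1 and Lgr5, 7.89%). Without E14.5 library 7, 8 rose, and without WT-9229, 5 fell. Wnt11, a noncanonical ligand, had 63.8, 104, 82.5 and 69.1 CPM at E14.5, against 13.6, 12.8 and 4.97 CPM in WT wounds, with a log2 fold change of 2.90 ± 0.34 (SE, adjusted p = 0.00024). Lgr5, a receptor for R-spondin, had 12.9, 13.6, 11.5 and 10.5 CPM at E14.5, against 60.1, 50.4 and 106 CPM in WT wounds, with a log2 fold change of -2.41 ± 0.27 (SE, adjusted p = 0.00021). Of 22 inhibitors and targets 8 rose (36.4%) and 1 fell (Dkk3). Dkk1, which blocks the Wnt co-receptor, had 35.5, 31.7, 40.6 and 23.2 CPM in E14.5 dermis and no read in any WT wound library, at least 86.6-fold higher on CPM. Sfrp5, which binds Wnt itself, had 40.1, 44.1, 41 and 23.8 CPM at E14.5, against 0, 0.267 and 0 CPM in WT wounds, with a log2 fold change of 5.11 ± 0.34 (SE, adjusted p = 2.7e-05). Dkk3 moved the other way, with 15.3, 14.1, 16.7 and 16 CPM at E14.5, against 207, 246 and 144 CPM in WT wounds, with a log2 fold change of -3.56 ± 0.21 (SE, adjusted p = 1.7e-05). Axin2, the general target of the pathway, had 111, 166, 123 and 73.6 CPM at E14.5, against 129, 136 and 59.7 CPM in WT wounds, and the groups overlapped, with a log2 fold change of 0.16 on CPM and -0.64 with TMM.

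TGF-beta and BMP genes rose in 9 of 34 cases (26.5%, near the 25.5% of all genes tested) and fell in 7 (20.6%, beside 6.54%). Their median turned from 0.64 on CPM to -0.13 with TMM. Id1 and Id3 are early targets of BMP signals. Id3 had 176, 161, 160.3 and 157 CPM at E14.5, against 44.3, 24 and 27.7 CPM in WT wounds, with a log2 fold change of 2.36 ± 0.21 (SE, adjusted p = 7.7e-05), and Id1 had 193, 198, 191 and 157 CPM at E14.5, against 16.1, 8.26 and 0 CPM in WT wounds, with 0 reads in WT-9229. Gdf10, a BMP-like ligand, had 28.7, 23.1, 15.4 and 42.9 CPM at E14.5, against 0.715, 2.67 and 0 CPM in WT wounds, with a log2 fold change of 3.86 ± 0.52 (SE, adjusted p = 0.00047). Among FGF and other growth factor genes 12 of 37 rose (32.4%) and 6 fell (16.2%). Spry2 and Spry4, which FGF signals induce and which dampen them, both rose, and Spry4 had 65.9, 70.2, 72.3 and 67 CPM at E14.5, against 7.15, 7.73 and 11.4 CPM in WT wounds, with a log2 fold change of 2.87 ± 0.20 (SE, adjusted p = 3.3e-05). Igfbp2, a binding protein of insulin-like growth factors, fell, with 91, 140.0, 83 and 121 CPM at E14.5, against 1218, 861 and 426 CPM in WT wounds, with a log2 fold change of -2.83 ± 0.35 (SE, adjusted p = 0.0003). Of 18 Notch pathway genes 5 rose (Hes1, Hes5, Hey1, Hey2 and Mfng) and none fell. The share that rose, 27.8%, was near the 25.5% of all genes tested. Hes1, a direct target, had 515, 378, 479 and 367 CPM at E14.5, against 84, 42.4 and 72.5 CPM in WT wounds, with a log2 fold change of 2.74 ± 0.25 (SE, adjusted p = 8.3e-05). Hey1, also a target, had 59.7, 35.8, 45.9 and 56 CPM at E14.5, against 3.22, 2.93 and 0 CPM in WT wounds, with a log2 fold change of 4.28 ± 0.51 (SE, adjusted p = 0.00026).

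Hox genes, which record position along the body, rose in 5 of 31 cases (Hoxa4, Hoxa9, Hoxb2, Hoxb7 and Hoxc4) and fell in none (1 without WT-9229). The share that rose, 16.1%, was below the 25.5% of all genes tested. The count that rose was 2 without E14.5 library 4 and 3 without library 7. Hoxc4 had 49.5, 41.3, 49.9 and 34.3 CPM at E14.5, against 5.01, 10.1 and 2.13 CPM in WT wounds, with a log2 fold change of 2.90 ± 0.41 (SE, adjusted p = 0.00057). Hoxc6 had 36.2, 41.4, 37.3 and 31.7 CPM at E14.5, against 26.5, 44.2 and 21.3 CPM in WT wounds, with overlapping groups. The body site of the skin is not given in the labels, so site and stage cannot be told apart for this family.

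**Figure D4:**
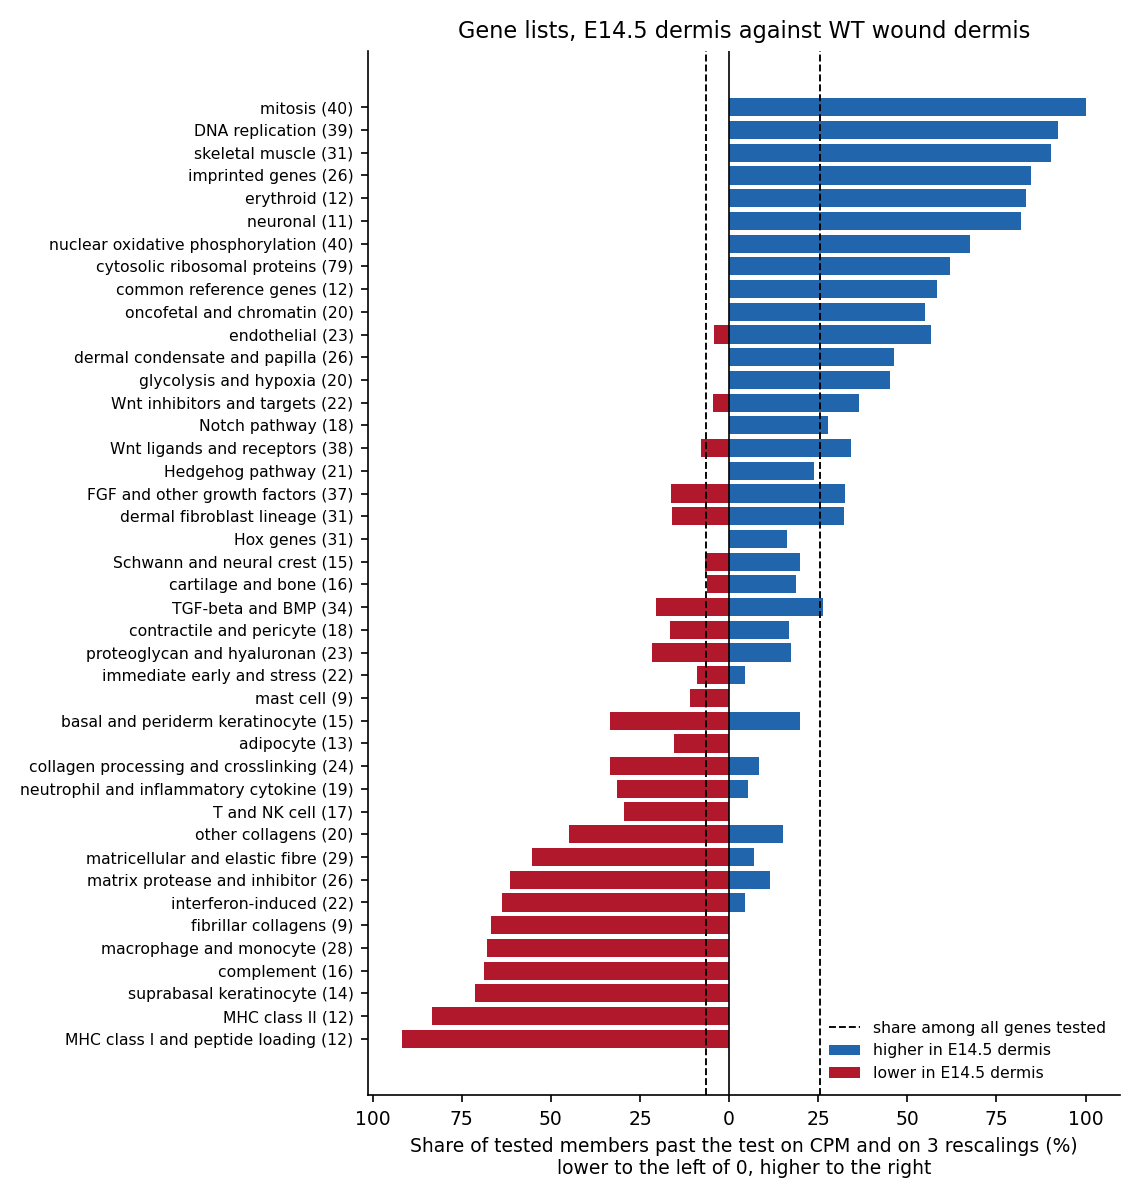
Share of the tested members of each gene list (number in brackets, lists of 9 or more) that passed on CPM and on the 3 rescalings, with lower in E14.5 dermis to the left of 0 and higher to the right, in percent. The dashed lines are the shares over all genes tested, 6.54% lower and 25.5% higher. Mitosis, DNA replication, skeletal muscle and imprinted genes reach furthest to the right, and class I, class II, complement and suprabasal keratinocyte genes furthest to the left.

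RNA of cell types other than fibroblasts separated the groups strongly. Of 31 skeletal muscle genes 28 rose and none fell (1 without WT-9229). Actc1, an actin of embryonic muscle, had 501, 239.9, 455 and 955 CPM in E14.5 dermis and no read in WT wound dermis, at least 1423-fold higher on CPM. Ttn, titin, the giant spring of the sarcomere, had 5221, 5029.8, 4531 and 19351 CPM at E14.5, against 40.05, 28.5 and 23.4 CPM in WT wounds, with a log2 fold change of 7.81 ± 0.49 (SE, adjusted p = 2.2e-05). E14.5 library 7 was the highest for both genes and held 19351 CPM of Ttn, and the list summed to 7825 to 29715 CPM over the E14.5 libraries, against 78.4 to 97.3 CPM over the WT libraries. Agtr2, an angiotensin receptor of fetal mesenchyme, behaved otherwise, with 781, 379.9, 807 and 819 CPM in E14.5 dermis and no read in WT wound dermis. That is at least 1839-fold higher on CPM, with the lowest value in library 4.

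Blood and vessels followed. Of 12 erythroid genes 10 rose. The 6 markers summed to 3208 to 9405 CPM in E14.5 dermis and 16.5 to 38.4 CPM in WT wound dermis. In all WT libraries 3 of these markers were at 0, Hbb-bh1 and Hbb-y among them. Hbb-y, the embryonic beta-like globin of mice, had 407, 366, 959.5 and 539.5 CPM in E14.5 dermis and no read in WT wound dermis, at least 1474-fold higher on CPM. Hba-x, the embryonic alpha-like globin, had 35.2, 30.7, 94.2 and 74.1 CPM, at least 152-fold higher on CPM. E14.5 library 5 was the highest for both globins. Of 23 endothelial genes 13 rose and 1 fell (Vwf), and the 4 markers, all found, summed to 594 to 685 CPM in E14.5 dermis and 96.9 to 181.5 CPM in WT wound dermis. Kdr, the main VEGF receptor, had 167, 188, 183 and 148 CPM at E14.5, against 9.65, 34.4 and 8.53 CPM in WT wounds, with a log2 fold change of 3.49 ± 0.41 (SE, adjusted p = 0.00026). Cldn5, a tight junction protein of endothelium, had 109, 90.4, 102 and 105 CPM at E14.5, against 2.15, 4.26 and 0 CPM in WT wounds, with a log2 fold change of 5.33 ± 0.49 (SE, adjusted p = 8.5e-05). Prox1 and Lyve1, markers of lymphatic vessels, rose as 2 of the 4 lymphatic genes of 7 that did, and Lyve1 had 73.2, 29, 63.4 and 80.7 CPM at E14.5, against 7.15, 2.13 and 7.82 CPM in WT wounds.

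Nerve and cartilage gave smaller or less even signals. Of 11 neuronal genes 9 rose, and Gap43, a protein of growing axons, had 119, 84.4, 124 and 111 CPM at E14.5, against 10.7, 13.1 and 9.24 CPM in WT wounds, with a log2 fold change of 3.20 ± 0.20 (SE, adjusted p = 2.2e-05). Of 15 Schwann cell and neural crest genes 3 rose (Erbb3, Ngfr and Fabp7) and 1 fell (Mbp), while without WT-9229, 2 rose and 3 fell. Ngfr, a neurotrophin receptor, had 188, 223, 159 and 177 CPM at E14.5, against 12.2, 6.4 and 15.6 CPM in WT wounds, with a log2 fold change of 3.99 ± 0.28 (SE, adjusted p = 2.9e-05). Of 16 cartilage and bone genes 3 rose (Col9a2, Lect1 and Sp7) and 1 fell (Matn4), and 5 rose without WT-9229, while none fell without E14.5 library 7. The shares that rose, 20.0% for Schwann cell and neural crest genes and 18.8% for cartilage and bone, were below the 25.5% of all genes tested. Col2a1, the collagen of cartilage, had 3.25, 939, 3.03 and 36.5 CPM at E14.5, against 1.07, 0.533 and 0 CPM in WT wounds. Library 4 alone carried it at 939 CPM, and the gene did not pass (adjusted p = 0.061, limma).

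Keratinocyte RNA was present on both sides of the EDTA split. Of 14 suprabasal keratinocyte genes 10 fell and none rose, and Lor, loricrin of the cornified layer, had 1.97, 3.75, 3.16 and 1.94 CPM at E14.5, against 46.1, 122 and 82.4 CPM in WT wounds, with a log2 fold change of -4.44 ± 0.38 (SE, adjusted p = 6.5e-05). Among 15 basal and periderm genes 5 fell (Krt5, Krt14, Krt17, Itgb4 and Dsp) and 3 rose (Krt18, Krt19 and Itga6). Krt14 had 20.2, 49.6, 17.8 and 13.3 CPM at E14.5, against 161, 227 and 92.4 CPM in WT wounds, with a log2 fold change of -2.71 ± 0.45 (SE, adjusted p = 0.0013), and library 4 was the highest E14.5 library. Krt19, a keratin of simple epithelium and periderm, had 4.64, 14.46, 5.57 and 9.4 CPM in E14.5 dermis and no read in WT wound dermis, at least 22.7-fold higher on CPM.

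Reads confined to 1 group were unequal in number, as depth was. No read was found in WT wound dermis for 1316 genes, of which 436 averaged 1 CPM or more in E14.5 dermis, and none in E14.5 dermis for 112 genes, of which 58 averaged 1 CPM or more in WT wound dermis. Counts of 0 allow up to 0.377 CPM over the pooled WT reads and 0.0425 CPM over the pooled E14.5 reads (3 reads each, counting error only). Arhgap36, an activator of the Hedgehog pathway in other settings, had 67.9, 38.5, 54.2 and 169.6 CPM in E14.5 dermis and none in WT wound dermis, at least 219-fold higher on CPM. Like the muscle gene Actc1, it was highest in E14.5 library 7 and lowest in library 4, and the part of muscle RNA was not tested. Mt4, a metallothionein of stratified epithelium, had no read in E14.5 dermis and 20.7, 10.4 and 7.1 CPM in WT wound dermis, at least 316-fold lower. Krt73, a keratin of the follicle's inner root sheath, had no read in E14.5 dermis and 138, 6.13 and 0 CPM in WT wound dermis, so that WT-9097 held nearly all of it. The hair keratin and keratin-associated genes Krtap7-1, Krt86, Krtap11-1 and Krt34 had reads in WT-9097 alone, at 56.5, 42.2, 41.1 and 34.3 CPM. WT-9097 thus carried RNA of hair follicle genes that the other WT libraries largely lacked. It was also the highest WT library for Lef1, and the part of follicle RNA was not tested.

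Short RNA genes were among the largest differences in CPM. The 7SK RNA, which restrains transcription elongation, was the most abundant gene of every E14.5 library, with 48058, 37385, 38236 and 39978 CPM at E14.5, against 6558, 4466 and 2199 CPM in WT wounds, with a log2 fold change of 3.34 ± 0.54 (SE, adjusted p = 0.0011). The gene listed as mmu-mir-689-2 had 73.7, 104, 87.2 and 108 CPM at E14.5, against 13737, 11766 and 13541 CPM in WT wounds, with a log2 fold change of -7.12 ± 0.19 (SE, adjusted p = 1.2e-06). Mir5105 had 8299.9, 8546, 7137 and 9121 CPM in E14.5 dermis, against 23333, 16195 and 177144 CPM in WT wound dermis, and lost its call without any one of the E14.5 libraries. Total RNA libraries of this kind are not made to measure such short RNAs, and whether these reads come from them was not tested.

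The same contrast was also fitted in the epidermis of the same study (4 E14.5 and 3 WT wound libraries), and the difference of the fold changes was tested over 19806 genes. The difference was positive, meaning a more positive change in dermis, for 1838 genes (9.28%) and negative for 1623 genes (8.19%) on CPM and on both rescalings tried for it (TMM, and the total without genes above 10000 CPM). On CPM alone it was positive for 2514 genes and negative for 1675. Without WT-9097 in both tissues 3829 were positive. Leaving out E14.5 number 3, E14.5 number 7 or WT-9229 in turn gave 1046, 1106 and 2547 negative genes, so these counts rest on single libraries in part. Matrix genes were prominent among them. For 8 of 9 fibrillar collagens and 18 of 29 matricellular and elastic fibre genes the change was more negative in dermis, with median log2 fold changes of -2.45 and -1.83 in dermis against 1.92 and 1.49 in epidermis. The epidermal sum of the fibrillar collagens ran against their epidermal median, with a mean of 1752 CPM at E14.5 and 1972 CPM in WT wounds. RNA of other cells was also present in the epidermal libraries, where the 6 dermal fibroblast markers summed to 559 to 1564 CPM at E14.5 and 377 to 2333 CPM in WT wounds, and the 6 skeletal muscle markers to 777 to 3181 CPM and 3.28 to 6.38 CPM. Their part in the differences between tissues was not tested. Postn had a log2 fold change of -2.51 in dermis and 3.17 in epidermis, a difference of -5.68 ± 0.38 (SE, adjusted p = 3.9e-07, limma). Fbn1 differed by -5.69 ± 0.65 and Vcan, versican, by -6.24 ± 0.43, as Vcan had 784, 758, 842 and 714 CPM at E14.5, against 888, 1149.5 and 784 CPM in WT wounds, while its epidermal mean was 634 ± 87.7 CPM at E14.5 and 10.3 ± 5.66 CPM in WT wounds (SD, n = 4 and 3).

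Cell division and class II genes did not separate the tissues in the same way. Of 40 mitosis genes 3 differed, all more negative in dermis, and the medians were 3.48 in dermis and 3.58 in epidermis. Of 39 replication genes 1 differed, with medians of 3.09 and 3.18. None of the 12 class II genes passed, with medians of -3.44 and -3.20, and the difference for H2-Aa was -0.86 ± 0.52 (adjusted p = 0.26), which does not show that the tissues changed alike. The imprinted genes split, 6 more positive and 7 more negative in dermis. H19 differed by -7.46 ± 0.91, since its epidermal mean was 6837 ± 265 CPM at E14.5 and 4.10 ± 3.99 CPM in WT wounds. Grb10 differed by -5.81 ± 0.59. Skeletal muscle genes (17 of 31), immediate early and stress genes (15 of 22) and glycolysis genes (10 of 20) were more positive in dermis, with none the other way. Fos, an immediate early gene, had 499, 325, 436 and 442 CPM at E14.5, against 308, 194 and 183 CPM in WT wounds, and the median of its list was 0.18 in dermis and -2.0 in epidermis. Agtr2, Dkk1 and Sfrp5 were more positive in dermis by 4.43 ± 0.63, 4.22 ± 0.40 and 3.98 ± 0.45. Gpnmb was more negative by -5.61 ± 0.92. Of 21 Hedgehog pathway genes 6 were more negative in dermis and none more positive, with medians of 0.92 in dermis and 2.29 in epidermis. Of its members, Gli1 and Ptch1 did not differ between tissues beyond their error, with differences of 0.09 ± 0.84 and -0.11 ± 0.49.

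**Figure D5:**
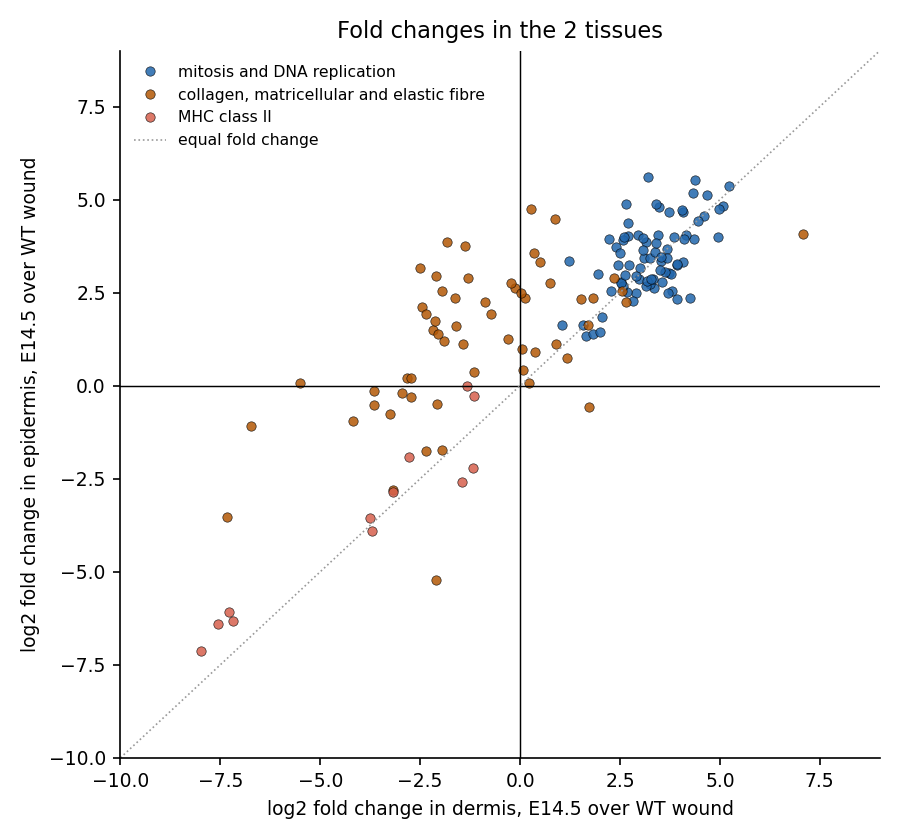
Log2 fold change of E14.5 over WT wound in dermis (horizontal) against that in epidermis (vertical) for 3 groups of genes, 1 point per gene, with equal change on the dotted line. Mitosis and replication genes and class II genes lie near the line, with medians of 3.48 and 3.58 for mitosis, while most collagen, matricellular and elastic fibre genes lie above it.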

How the data were processed

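The libraries held ribosomal RNA-depleted total RNA of mouse dermis (7 libraries compared here) and, for 1 comparison, epidermis (7 libraries). Sequencing was paired-end, on stranded libraries. The submitters' processing notes name Bowtie, SAMtools and HTSeq and the build NCBIM37. For their versions, and for whether counting used strand, nothing was found (not given in the sources used here), so overlapping and antisense genes and near-identical copies (H2 genes, Hbb-b1 and Hbb-b2, small RNAs) are uncertain, and for 100 symbols with more than 1 ID the most abundant ID is given.

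The authors deposited CPM per gene and library. Each library summed to 1000000, and 100% of values were whole reads within a tolerance of 0.01, which gave the depth. Deposited columns with the authors' own fold changes and p-values were not used. Another 6 deposited tables were not used.

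Each gene with 1 or more reads was tested on log2(CPM + 1) by limma 3.58.1 (R 4.3.3), with a trend of spread with level, only the 2 groups in the fit, a two-sided test and Benjamini-Hochberg adjustment over all genes at 0.05. A fold change on this scale understates the change of low genes. Rescaled values used TMM, the total without 43 collagen genes, and the total without 13 genes above 10000 CPM. Recovered reads were also tested with edgeR 4.0.16 and DESeq2 1.42.0 as alternatives. The interaction with tissue was a limma fit over 14 libraries. No replicate number is shared by E14.5 and WT libraries, so the main comparison has no pairing. The scripts were tested on simulated data. Fold bounds use a floor of 3 reads over a group and hold on CPM only. All 3 rescalings lower E14.5 values against WT values, so the bounds of genes higher in E14.5 dermis would be smaller there.

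Named genes are the 10 largest rises and falls, the 10 largest gains and losses in CPM, the 10 most abundant genes with no read in one group, the 6 most abundant and the 4 most certain members of each of 44 lists, and genes the study names. Members that complete a count of 5 or fewer, and Hapln1, were named after their values were seen. The comparison and the gene lists were chosen with earlier results of these data known, and the 7 libraries follow from their labels. List symbols not in the tables were not analysed here, and some list members are not reported here.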

Additional observations from a re-analysis of the deposited data

Results flagged for a closer look

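In a group of 4 libraries a gene was marked when its lowest or highest library lay apart from the next by a larger share of the group's range than Dixon's 95% critical value, which chance does in about 1 group of 20. This marked 11 of 172 genes and 8 of 44 list sums in E14.5 dermis. WT wound dermis has 3 libraries and was not examined in this way.

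E14.5 library 7 was the high one for Ttn (ratio 0.953, 19351 CPM against 4531 to 5221 CPM in the others), Myh7 (0.848) and C4b (0.866), and for the summed skeletal muscle list (0.904, 29715 CPM against 7825 to 9919 CPM) and adipocyte list (0.903, 862 CPM against 246 to 305 CPM). Library 7 was the low one for Peg3 (0.832). Library 4 was the high one for Col2a1 (0.964, 939 CPM against 3.03 to 36.5 CPM), H2-DMa (0.889) and the summed cartilage (0.958), fibrillar collagen (0.922), other collagen (0.914) and Wnt ligand and receptor lists (0.895). Library 4 was the low one for Agtr2 (0.913, 379.9 CPM against 781 to 819 CPM), Thbs2 (0.831), and the ribosomal protein (0.94) and neuronal lists (0.896). Library 3 was the low one for Loxl2 (0.83), and library 5 the high one for Mmp12 (0.851) and Il1b (0.859).

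The change in E14.5 against WT wound differed between dermis and epidermis, by the test of the difference, for 15 of the 24 genes followed. Over all genes the difference was positive for 9.28% and negative for 8.19%. The 24 genes were picked, and Lrrc15, Tnn, Itgbl1 and Agtr2 among them had some of the largest changes in dermis. The count of 15 therefore does not describe genes at large. It was more negative in dermis for H19 (difference in log2 fold change -7.46), Vcan (-6.24), Grb10 (-5.81), Fbn1 (-5.69), Postn (-5.68), Tnn (-5.66), Gpnmb (-5.61), Itgbl1 (-5.19), Lrrc15 (-3.80), Thbs2 (-3.14) and Igf2 (-1.89). It was more positive in dermis for Agtr2 (4.43), Dkk1 (4.22), Sfrp5 (3.98) and Emid2 (3.0).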

How the results depend on the processing

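The split of the 9741 higher and 1309 lower genes moved with the scaling, to 5024 and 2759 with TMM, 6314 and 1996 without collagen genes, 6202 and 2275 without genes above 10000 CPM, 4273 and 3512 with edgeR and 4945 and 3979 with DESeq2, as the median of well-measured genes moved from 0.911 to 0.121, 0.4255 and 0.328 under the 3 rescalings. Leaving out 1 library gave 8197 to 10222 higher and 981 to 2121 lower genes. The highest lower count was without WT-9229, where the genes that fell on every scaling numbered 2120 against 1290 (1049 to 2120 lower and 3845 to 6058 higher over 3 such fits), alternatives chosen after seeing the data (without WT-9229, E14.5 library 4 or E14.5 library 7). For the difference between tissues, leaving out 1 number gave 2724 to 5851 genes in all against 4189, 1678 to 3829 positive and 1046 to 2547 negative. The labels do not say whether the same number in dermis and epidermis marks the same animal. Same-numbered libraries had correlations of deviations of 0.0185 to 0.318, and 5 of 7 dermis libraries matched their own number best, a hint of pairing from the data. With the number as a replicate block 2593 genes were positive and 1624 negative, against 2514 and 1675. Of 3096 pairs of gene and setting, 2962 kept direction and side of the threshold, 52 lost the call, 26 gained it and 39 moved. These genes were named in large part for the size or certainty of their change, so the count kept does not describe genes at large. The sign turned, with at least one of the 2 values past the test, for 7 genes: Serpinh1 (-0.012 edgeR, -0.018 DESeq2), P4hb (-0.12 TMM, -0.14 edgeR, -0.15 DESeq2), Dcn (-0.66 TMM, -0.65 edgeR, -0.65 DESeq2), Rpl4 (-0.51 TMM, -0.53 edgeR, -0.53 DESeq2), Mrc1 (-0.94 edgeR, -0.96 DESeq2), Pdgfra (-0.024 edgeR, -0.025 DESeq2) and Gli3 (-0.61 edgeR, -0.62 DESeq2). Signs also turned where neither value passed, as for Dcn (0.14 on CPM, -0.36 without collagen genes, -0.46 without genes above 10000 CPM) and Lum (0.45 on CPM, -0.35 TMM). The cause was not tested. Depth limits genes near 1 CPM in WT wound dermis, where 1 read is worth 0.267 to 0.710 CPM.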
